A study of Mus musculus with 10 samples.

Results

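The COUP-TF genes Nr2f1 and Nr2f2, the Hey genes Hey1, Hey2 and Heyl, and the Iroquois genes Irx1, Irx2, Irx3, Irx4 and Irx5 encode transcription factors that set atrial or ventricular identity of heart tissue or belong to the same families. They were chosen by name, 10 of the 23337 genes in the count table, and are described here in the right atria of adult mice. RNA was sequenced from 10 mice of mixed strain, 1 library each, of which 4 carry the label control and 6 the label Tbx5 mutant. The design asks which genes of the right atrium depend on Tbx5, the T-box factor of the atria and conduction system. The mutant loses exon 3 of Tbx5 once tamoxifen switches on its Cre, and because the R26 promoter expresses this Cre in all tissues, the loss is not limited to heart muscle cells. The paper names its controls by the Cre alone, without floxed alleles, and describes RNA of left atria. This genotype is taken over here for the right atria. Both groups share, as far as the labels state it, 3 days of tamoxifen at a daily 0.167 mg, with tissue taken 1 week after it. The labels give the age as 8 to 10 weeks in 1 place and 6 to 8 weeks in another.

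COUP-TF factors are orphan nuclear receptors. Nr2f2 is known for its atrial expression in the mouse heart, where it holds atrial identity against ventricular genes, and for its role in venous endothelium, whereas Nr2f1 is its close relative. The Hey genes encode basic helix-loop-helix repressors that Notch receptors switch on through the DNA-binding factor RBPJ. In the developing heart Hey1 marks atrial and Hey2 ventricular muscle, and Hey2 keeps atrial genes silent in the compact ventricular wall. Heyl is known mainly from vascular smooth muscle. The Iroquois homeodomain factors act mostly in the ventricle: Irx4 is a ventricular factor that represses atrial genes, Irx3 acts in the ventricular conduction system, and Irx5 shapes the gradient of repolarization across the ventricular wall.

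Several libraries went against their labels. Tbx5 itself had between 184 and 224 CPM in the controls and between 275 and 475 CPM in the mice labelled Tbx5 mutant, a log2 fold change of 0.94 (SE 0.153; edgeR quasi-likelihood test, Benjamini-Hochberg adjusted p = 0.000495). CPM is the read count scaled to library size by the TMM method. Reads over the whole gene do not separate transcripts with and without exon 3, and every direction below is relative to the labels. The control mice labelled M1 and M2 had 10149 and 7850 reads of Xist and 0 of Ddx3y, whereas those labelled F1 and F2 had 5 and 14 reads of Xist and 1319 and 1124 of Ddx3y, the reverse of their labelled sex. In mutant M3, 38.9% of reads came from the ribosomal RNA precursor Rn45s, against 0.268% to 1.49% in the other 9 libraries. Total counts were between 5703775 and 7095141 per library.

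Hey1 was the only one of the 10 regulators that passed the test, and it fell. Of the others, Nr2f1, Nr2f2 and Hey2 had negative estimates that did not pass, Heyl and Irx5 lay close to 0, and Irx1, Irx2, Irx3 and Irx4 had too few reads to be tested. To be called, a gene needed an adjusted p under 0.05 (edgeR quasi-likelihood test, Benjamini-Hochberg), a fold over 1.5 and a mean normalized signal over 1 in the controls. By this rule 1 of the 6 regulators tested was lower, and of all 13084 genes tested 7.16% were lower. None of the 6 was higher, against 8.5% of all genes, and 15.7% of all genes were called in either direction. The median log2 fold change of the 6 regulators was -0.26, and that of all genes tested was -0.0050. None of the 6 had CPM values that separated the mice labelled mutant from the controls without overlap, whereas 22.7% of all genes tested did.

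**Figure D1:**
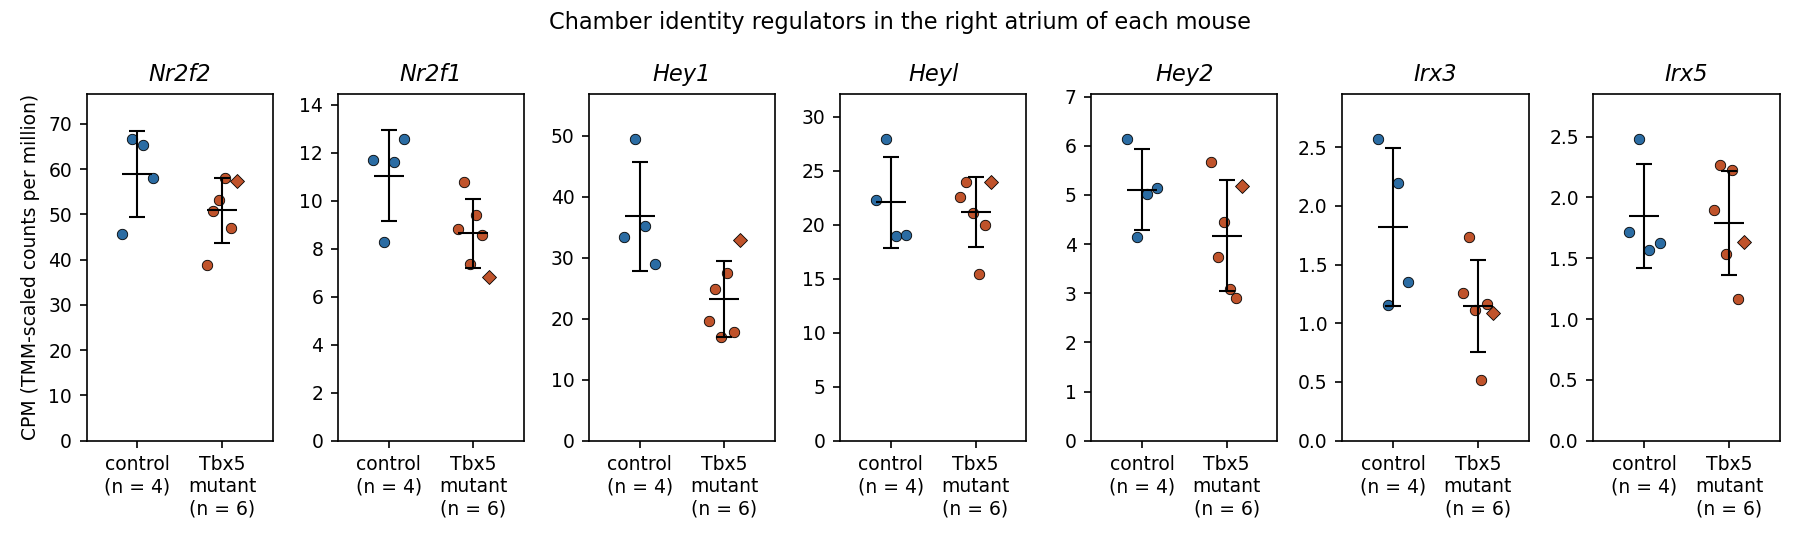
CPM (read counts scaled to library size, linear axes from 0, a different range for each gene) of the 7 regulators with more than 1 read in any library, in 4 control and 6 Tbx5 mutant mice. Each point is a mouse, the bars give the mean and SD, and the diamond is mutant M3, whose Hey1 value of 32.9 CPM lies among the controls while the other 5 mutant mice lie below all 4 of them.

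Hey1 (ENSMUSG00000040289.8) lies on the reverse strand at chr3:8663359-8667256 of GRCm38. In the controls M1, M2, F1 and F2 its level was 33.4, 49.5, 35.1 and 29.0 CPM. In the mice labelled mutant it was 19.6, 24.8 and 17.0 CPM in F1, F2 and F3, and 27.4, 17.8 and 32.9 CPM in M1, M2 and M3. Control M2 stood highest of all 10 mice, 5 of the 6 mutant mice lay below every control, and mutant M3, the library rich in Rn45s, lay above control F2, so that the groups overlapped. The reads behind these values were between 214 and 299 in the controls and between 121 and 186 in the mutants.

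The log2 fold change of Hey1 was -0.68 (95% interval -1.08 to -0.27), a fold of 0.626, with an adjusted p of 0.0149 in the edgeR quasi-likelihood test with Benjamini-Hochberg adjustment over all genes. A two-sided exact permutation test of the difference in mean CPM over all 210 assignments of the mice, 1 of 7 such tests on the regulators, gave an unadjusted p = 0.0190. The fall of Hey1 depended on control M2: without that mouse the estimate was -0.50 and edgeR's adjusted p was 0.0661, which ended the call. Without mutant M3 it was -0.79, with an adjusted p of 0.00532 by edgeR. Among mice labelled male alone the estimate was -0.69 (edgeR adjusted p = 0.118), and among those labelled female alone it was -0.64 (edgeR adjusted p = 0.0275). These are not estimates within a sex: by their Xist and Ddx3y reads the controls in each subset were of the other sex than the mutants, so that sex and group cannot be told apart there. With labelled sex as a covariate and the control labels exchanged, Hey1 kept a log2 fold change of -0.68 (edgeR adjusted p = 0.0172). In whole tissue, fewer cells that express Hey1 and less Hey1 RNA per cell cannot be told apart.

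**Figure D2:**
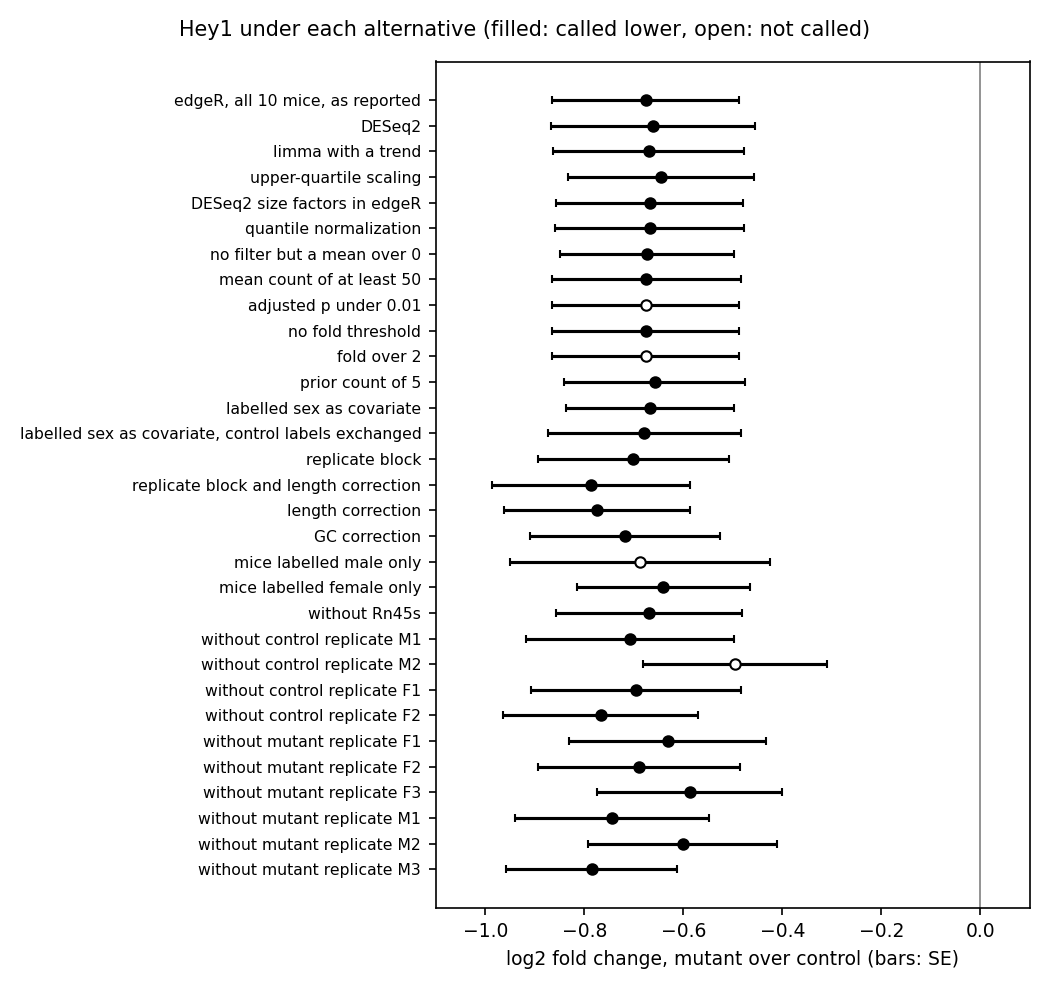
Log2 fold change of Hey1, mice labelled Tbx5 mutant over control, in the fit as reported and under 30 alternatives, with bars for the standard error. All estimates lie between -0.79 and -0.50, and the 4 open points are settings in which Hey1 was not called.

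Hey1 is known from endothelial and endocardial cells as well as from atrial muscle. The summed CPM of 8 endothelial and endocardial markers was between 1674 and 2387 in the controls. In the mice labelled mutant it was between 1760 and 2326. None of the 8 was called or at 0 in all libraries, but they were mixed. Emcn had a log2 fold change of 0.55 (edgeR adjusted p = 0.0132), with a fold of 1.46 that lay under 1.5. Plvap, Pecam1, Cdh5 and Tie1 had positive estimates too, and Npr3 (-0.29), Kdr (-0.24) and Tek (-0.032) negative ones. Some markers of other cells were called higher, where 8.5% of all genes tested were. All 3 leukocyte markers tested (Ptprc, Csf1r and Cd68) rose. So did 2 of 7 fibroblast markers (Col1a1 and Col1a2) and 2 of 9 smooth muscle and pericyte markers (Acta2 and Tagln). The last 2 lists were mixed. Log2 fold changes were negative for the fibroblast markers Pdgfra (-0.40) and Dcn (-0.012). They were also negative for the smooth muscle and pericyte markers Abcc9 (-0.58), Kcnj8 (-0.27) and Rgs5 (-0.22), and none of these was called. The summed CPM of the 5 leukocyte markers in the table was between 128 and 186 in the controls and between 208 and 293 in the mutants, without overlap. Of all single genes tested, 22.7% did not overlap either. Summed fibroblast markers were between 2928 and 3729 CPM against 3589 and 4959 CPM, and smooth muscle and pericyte markers between 419 and 494 CPM against 464 and 936 CPM. Of 5 cardiomyocyte markers Tnnt2 and Actc1 rose and Ryr2 fell, and 2 of the 3 sinoatrial node markers tested, Hcn4 and Tbx3, fell. None of 6 epicardial and mesothelial markers and neither Schwann cell marker tested was called, and no adipocyte marker passed the filter on low counts. The part of these cell types in the Hey1 difference was not tested.

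Hey2, on the reverse strand at chr10:30832359-30842801, is the ventricular member of the family in the developing heart. It had 6.14, 4.14, 5.02 and 5.14 CPM in the controls M1, M2, F1 and F2. The mice labelled mutant ranged from 2.91 to 5.68 CPM with a median of 4.10. These ranges overlapped, and 18 to 43 reads per library set a coarse limit to precision. Its log2 fold change of -0.31 (95% interval -0.78 to 0.15) did not pass, with an adjusted p of 0.292 by edgeR's quasi-likelihood test, and the estimate of Hey1 lies within this interval.

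Heyl, on the forward strand at chr4:123233556-123249875, is the vascular member. It had 22.3, 28.0, 18.97 and 19.1 CPM in the controls M1, M2, F1 and F2, and between 15.4 and 24.0 CPM with a median of 21.8 in the mice labelled mutant. The mutant range covered 3 of the 4 controls. Its log2 fold change was -0.061 (95% interval -0.37 to 0.25; edgeR adjusted p = 0.772). This interval does not reach the estimate of Hey1 but overlaps the interval of Hey1 (-1.08 to -0.27), and the difference between these genes was not tested. The sign of this estimate turned in some alternatives, among them the correction for transcript length.

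The makeup of the Hey reads differed among mice. Hey1 held 54.0% to 60.6% of the reads of the 3 Hey genes in the controls. In the mice labelled mutant it held 40.9%, 47.2% and 40.0% in F1, F2 and F3, and 59.7%, 43.7% and 53.1% in M1, M2 and M3. Mutant M1 lay within the range of the controls, mutant M3 just below it, and the other 4 mutants further below. These shares rest on 228 to 493 reads and were not tested.

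Nr2f2, the atrial COUP-TF gene, lies on the reverse strand at chr7:70351944-70366735. It had 45.7, 66.7, 65.2 and 58.1 CPM in the controls M1, M2, F1 and F2. The mice labelled mutant ranged from 38.8 to 58.1 CPM with a median of 51.9. Controls M1 and F2 lay within the mutant range, and M2 and F1 lay above it. The log2 fold change was -0.21 (95% interval -0.49 to 0.062), with an adjusted p of 0.222 in edgeR's quasi-likelihood test, so that a fall was not shown and a fall beyond -0.49 lies outside the interval.

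Nr2f1 lies on the reverse strand at chr13:78188973-78199757. It had 11.7, 8.27, 11.6 and 12.6 CPM in the controls M1, M2, F1 and F2, and between 6.81 and 10.8 CPM with a median of 8.71 in the mice labelled mutant. Control M2 lay among the mutants and the other 3 controls lay above all of them. The log2 fold change was -0.35 (95% interval, unadjusted, -0.68 to -0.0079), and it did not pass after adjustment, with edgeR's adjusted p at 0.110.

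Both COUP-TF genes share exonic sequence with a gene on the opposite strand, and the sources do not state whether counting used strand, so that reads of the partners cannot be told apart. For Nr2f1 the partner A830082K12Rik had 23 to 30 reads in the controls and 14 to 25 in the mutants. For Nr2f2 the partner B130024G19Rik had 29 to 43 reads in the controls and 17 to 32 in the mutants. Nr2f2 held between 79.6% and 89.0% of the reads of the COUP-TF pair in the controls and between 81.5% and 89.4% in the mutants, so the balance of the pair overlapped between the groups.

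The Iroquois genes were near or below detection in the right atrium of both groups. Together the 5 genes had between 22 and 30 reads per library in the controls and between 10 and 30 in the mice labelled mutant, and nearly all of these came from Irx3 and Irx5. Irx1 (chr13:71957921-71963723) had 0 reads in all 10 libraries. Irx2 (chr13:72628820-72634198) had 1 read in control F1 and 0 elsewhere. Irx4 (chr13:73260479-73269608), the ventricular factor, had 1 read in mutant F1 and 0 elsewhere. A count of 0 allows up to 3 reads, which is a level of 0.3998 to 0.817 CPM depending on the library, so that these genes were not detected at this depth in either group and no fold was formed.

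Irx5, on the forward strand at chr8:92357625-92376286, had 12, 15, 10 and 12 reads in the controls M1, M2, F1 and F2 and 6 to 17 reads in the mutants. That is 1.71, 2.48, 1.57 and 1.62 CPM in the controls against 1.16 to 2.27 CPM with a median of 1.76 in the mutants. The groups overlapped, and the log2 fold change was -0.035 (95% interval -0.61 to 0.54; edgeR adjusted p = 0.949), so that changes of moderate size in either direction lie within the interval.

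Irx3, on the reverse strand at chr8:91798525-91802067, had 18, 7, 14 and 10 reads in the controls M1, M2, F1 and F2 and 3 to 13 reads in the mutants. Its levels were 2.57, 1.16, 2.19 and 1.35 CPM in the controls and 0.514 to 1.73 CPM with a median of 1.14 in the mutants. Controls M1 and F1 stood above every mutant, and the other 2 controls lay among them. Irx3 did not pass the filter on low counts, and without the filter its log2 fold change was -0.64 with an adjusted p of 0.226 by edgeR. The exact two-sided permutation test of its mean CPM gave p = 0.0857. The antisense gene Irx3os overlaps exons of Irx3 and was not analysed here.

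Per kilobase of its longest GENCODE M21 transcript, the regulators spanned a wide range of levels. In the controls, Hey1 had 15.2 ± 3.66 CPM per kb (SD, n = 4) and Nr2f2 had 13.96 ± 2.27 CPM per kb, which do not differ beyond their spread. In the mice labelled mutant, Hey1 had 9.59 ± 2.59 CPM per kb (SD, n = 6) and Nr2f2 had 12.0 ± 1.72 CPM per kb. Heyl followed at 4.87 and 4.66 CPM per kb in controls and mutants, then Nr2f1 at 3.44 and 2.69 and Hey2 at 2.00 and 1.64 CPM per kb. Over all mice, Hey1 and Heyl did not overlap, with the lowest Hey1 value at 7.02 and the highest Heyl value at 6.16 CPM per kb. Neither did Hey2 and Irx5, whereas Heyl overlapped Nr2f1 and Nr2f1 overlapped Hey2. Irx5 at 0.724 and 0.701 CPM per kb and Irx3 at 0.662 and 0.417 CPM per kb overlapped as well, and Irx1, Irx2 and Irx4 stood at or next to 0.

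**Figure D3:**
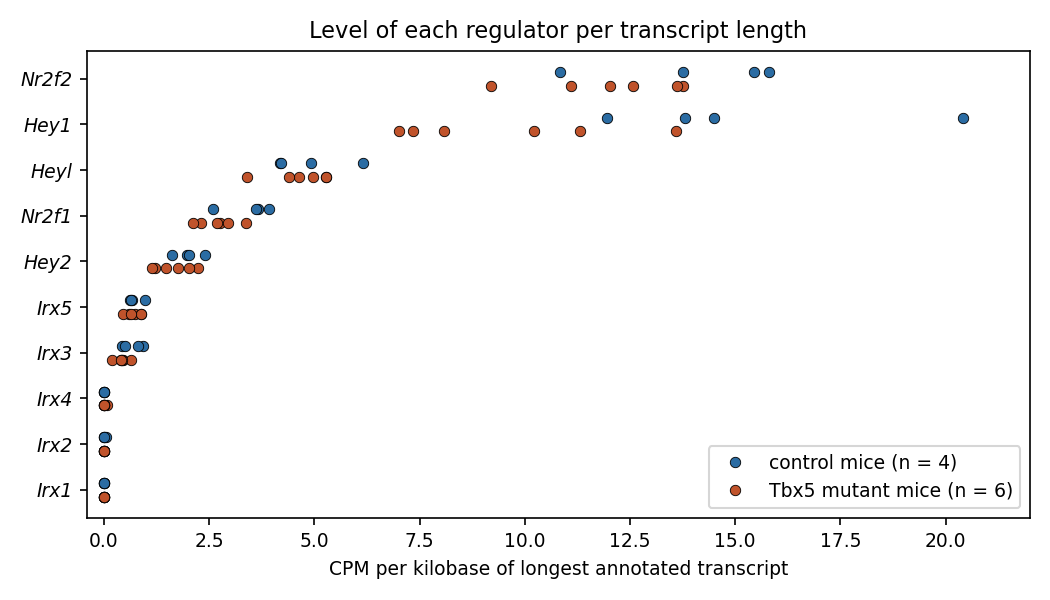
CPM per kilobase of the longest annotated transcript for the 10 regulators (linear axis), 1 point per mouse, with 4 control mice above and 6 Tbx5 mutant mice below each line. Nr2f2 and Hey1 stand highest, and Irx4, Irx2 and Irx1 lie at or next to 0 in all mice.

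The promoters bear on whether these genes hold motifs of the factors named above. RefSeq windows of GRCm38.p6, from 250 bases before to 50 bases after a start, were found for 6 of the 10 regulators, as 7 windows. Hey1, Heyl, Irx1 and Irx5 had no entry. On both strands, with none of the 3 motifs contained in another, the T-box core AGGTGT was in 0 of the 7 windows, and 13.7% of all 32851 promoters hold it. The RBPJ motif TGGGAA, was in the windows of Hey2, Irx2 and Irx3, and 25.6% of all promoters hold it. The E-box CACGTG was in 0 of the 7 windows and in 7.15% of all promoters. Hey2 is shown because it was the only Hey gene with a window and had 2 RBPJ matches, which are in capitals on the gene's strand, written 5′ to 3′. The first stretch is chr10:30842945-30843030 and the second, which crosses the start, chr10:30842781-30842826, both on the reverse strand. A match is a string of letters and not a binding site.
Hey2 upstream: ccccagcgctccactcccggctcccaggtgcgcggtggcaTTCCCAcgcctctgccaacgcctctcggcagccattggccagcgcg
Hey2 at the start: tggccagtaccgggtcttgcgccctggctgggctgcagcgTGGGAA

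Partners of these regulators were described beside them. Of 14 relatives and partners of the COUP-TF factors, 2 fell and 0 rose, with a median log2 fold change of -0.053, where 7.16% of all genes were lower. Zfpm2 (FOG2), a cofactor of GATA4 and of COUP-TF factors, had 35.7 to 45.2 CPM in the controls and 23.1 to 28.6 CPM in the mutants, without overlap, with a log2 fold change of -0.65 (edgeR adjusted p = 0.000348). Of all genes tested, 22.7% did not overlap either.

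Of 17 Notch pathway genes around the Hey genes, 2 fell and 0 rose, with a median log2 fold change of -0.11, beside 7.16% of all genes lower and 15.7% called in either direction, so that the count is near that of all genes. Both were ligands. Dll1 had 8.12 to 8.72 CPM in the controls and 3.06 to 5.83 CPM in the mutants, a log2 fold change of -0.99 (edgeR adjusted p = 0.00107). Jag2 had 12.2 to 17.5 CPM against 6.26 to 11.8 CPM, a log2 fold change of -0.62 (edgeR adjusted p = 0.0211). Neither ligand overlapped between the groups, as was so for 22.7% of all genes tested. The ligand Jag1 had a log2 fold change of 0.36 (edgeR adjusted p = 0.0379) and was not called, since its fold of 1.28 lay under 1.5. The receptor Notch1 had one of -0.098 (edgeR adjusted p = 0.498) and was not called. Hes1 and Nrarp, which Notch also switches on, had log2 fold changes of 0.28 and 0.20 and were not called either, with edgeR adjusted p of 0.227 and 0.423.

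A list around the Iroquois genes left 8 genes to test, ion channel and connexin genes reported as targets and Fto and Rpgrip1l, neighbours of Irx3. Of these 8, 4 fell and 0 rose, with a median log2 fold change of -0.65, where 7.16% of all genes were lower. The 8 mix targets and neighbours, so the count is not one of Iroquois targets. Among them were Gja5 (connexin 40), Gja1 (connexin 43) and Rpgrip1l, a ciliary gene and no Iroquois target. Gja5 is counted among the atrial-enriched genes too, and Kcnip2, also tested here, among the ventricular-enriched genes. Gja1 had a log2 fold change of -2.27, while the potassium channel Kcnd2, a target of Irx5, had -0.099 and Kcnd3 had -0.11, neither of which was called. The relatives Irx6 and Mkx were below the filter on low counts, so that no Iroquois relative was tested.

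In the mice labelled mutant most atrial-enriched genes fell and more ventricular-enriched genes rose than fell. Of 12 atrial-enriched genes, 10 fell and 0 rose, with a median log2 fold change of -1.001, where 7.16% of all genes were lower. Both chamber lists were chosen with earlier results of these data known. Gja5, the connexin of atrium and conduction system, had 178 to 256 CPM in the controls and 8.22 to 15.8 CPM in the mutants, a log2 fold change of -4.31 (edgeR adjusted p = 4.01e-09). Myl7, the atrial myosin regulatory light chain, had 5226 to 7556 CPM against 738 to 1306 CPM, a log2 fold change of -2.73 (edgeR adjusted p = 9.36e-08). Neither overlapped between the groups, as was so for 22.7% of all genes tested. The other 8 were Stard10 (-2.29), the acetylcholine-activated potassium channel subunits Kcnj3 (-2.14) and Kcnj5 (-2.06), Pam (-1.03), sarcolipin Sln (-0.98), Dkk3 (-0.70), natriuretic peptide Nppa (-0.65) and Bmp10 (-0.64), as log2 fold changes. Myl4 (-0.44) and Kcna5 (-0.45) were not called.

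Of 7 ventricular-enriched genes tested, 4 were called higher and 0 lower, with a median log2 fold change of 0.95, where 8.5% of all genes were higher. Myl3, the ventricular essential light chain, had 33.3 to 53.6 CPM in the controls and 586 to 826 CPM in the mutants, a log2 fold change of 3.92 (edgeR adjusted p = 6.13e-09). Myl2, the ventricular regulatory light chain, had 1.71 to 6.63 CPM in the controls and 6.51 to 33.7 CPM in the mutants, which overlap at the edge, and a log2 fold change of 2.10 (edgeR adjusted p = 0.00156). Lbh (1.91) and phospholamban Pln (0.95) rose too, as log2 fold changes. Myh7 (0.92), Kcnip2 (-0.67, edgeR adjusted p = 0.0508) and Kcnj2 (-0.26) were not called. Beside these, the ventricular factor Irx4 had a single read in 1 mutant mouse, Hey2 was not called, and Nr2f2 was not called. Whether the regulators and the chamber genes differed in response was not tested beyond these values.

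**Figure D4:**
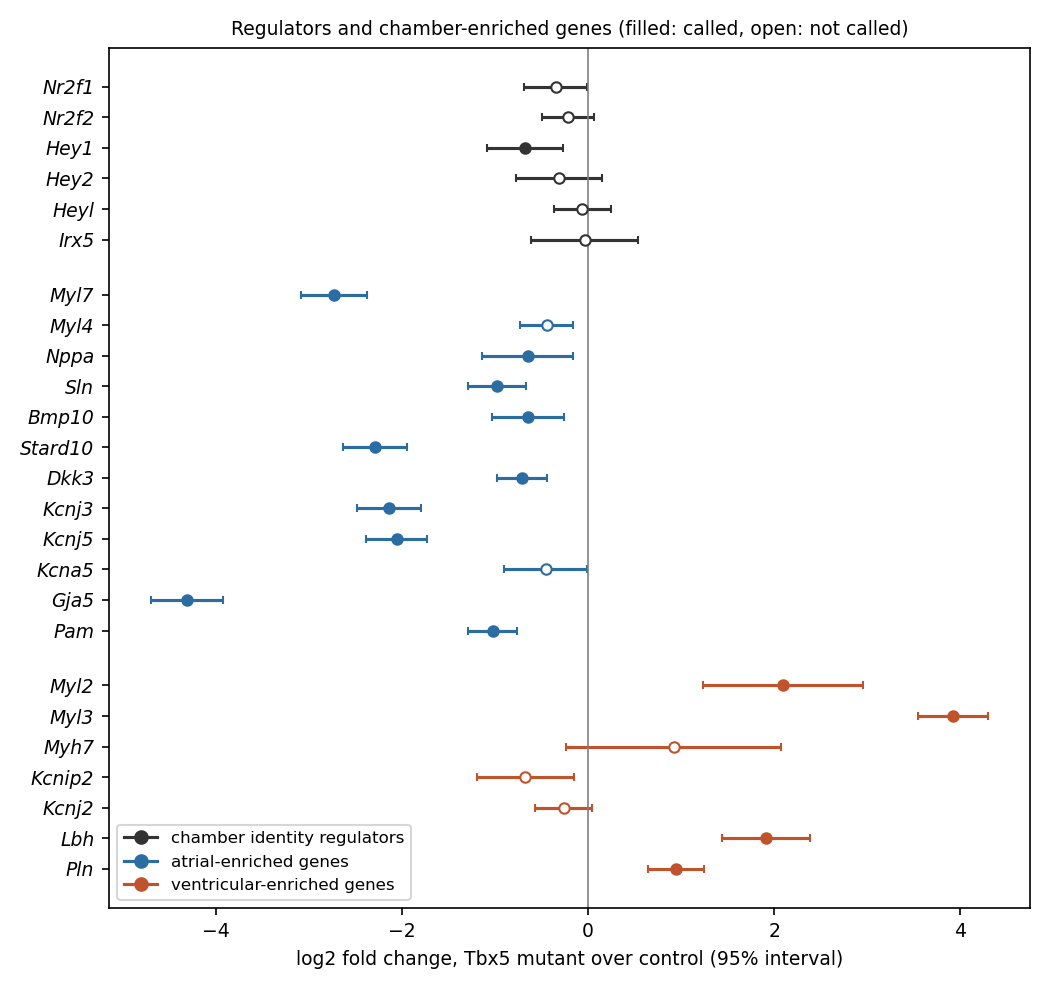
Log2 fold change, mice labelled Tbx5 mutant over control, with 95% intervals for the 6 regulators tested, 12 atrial-enriched and 7 ventricular-enriched genes. Filled points passed the test. The regulators lie between -0.68 and -0.035, while Gja5 lies at -4.31 and Myl3 at 3.92.

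For the regulators with a mean of at least 50 reads, the genes that varied most like them across the 10 libraries, after the group means were taken out, were named as a description. For Hey1 these were Socs5 (Pearson's r = 0.948), Zfp503 (0.924) and S100pbp (0.910), of the 13084 genes tested. Nr2f2 varied most like Afmid (0.936), Art1 (0.925) and Ptch1 (0.916), Nr2f1 like Nab2 (0.956) and Zpbp (0.926), and Heyl like Ammecr1 (0.970), Uts2d (0.952) and Zfp109 (0.948). Among the regulators themselves the highest was that of Nr2f2 and Hey1 (0.553) and the lowest that of Nr2f1 and Heyl (-0.509). The libraries share their depth, scaling and the Rn45s-rich mutant M3, and these genes were picked as the highest of all genes tested.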

How the data were processed

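Right atrial RNA-seq of 4 mice labelled control and 6 labelled Tbx5 mutant was analysed. The authors deposited 1 table with raw counts of reads per gene symbol in each library and a normalized signal, each count divided by 1 size factor per library. The submitters' processing notes name FastQC, TopHat2 2.0.11, featureCounts, DESeq2 and the build mm10. The deposited table also holds the authors' own comparison as log2 fold change with its standard error, Wald score, p-value, adjusted p-value and linear fold ratio, none of which was used. Every per-library column matched a sample. The labels describe both an mRNA kit with globin removal and a ribosomal depletion, and the counting's use of strand is not given in the sources used here.

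Counts were fitted with edgeR 4.0.16 in R 4.3.3 (expression filter, TMM scaling, prior count 0.125, quasi-likelihood test, no covariates, Benjamini-Hochberg adjustment over 13084 genes). Calls needed an adjusted p under 0.05, a fold over 1.5 and a mean control signal over 1. These are the thresholds that the paper states for coding genes, there in left atria. The fit was tested on simulated data. Single values were compared by exact permutation over 210 assignments, with 0.00952 the smallest two-sided p. Log2 fold changes were also corrected for transcript length, with a length for 11868 of the genes tested. Lengths and positions came from GENCODE M21 and promoters from RefSeq (GRCm38.p6). Totals were between 5703775 and 7095141 counts per library, and a floor of 3 counts covers counting error only. Labels do not say how mice relate beyond sex, and none of the 21 pairs of libraries within a group was alike within sampling noise (lowest chi-square per degree of freedom 3.78).

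Named were all 10 regulators, Tbx5, the genes called or not in 5 lists of partners and chamber-enriched genes and 9 lists of cell type markers, and the 3 genes most like each regulator. The members and lists were chosen with earlier results of these data known. Alternatives were DESeq2 1.42.0, limma 3.58.1 with a trend, other scalings, filters, thresholds and prior count, sex as a covariate, a replicate block, length and GC corrections, each labelled sex alone, the counts without Rn45s, and each library left out in turn. Crnde and Adgre1 were not analysed here, and some genes counted in the lists or by the rule above are not reported here.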

Additional observations from a re-analysis of the deposited data

Results flagged for a closer look

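Irx5 stood at 2.48 CPM in control M2, from 15 reads, and this mouse was flagged as apart from its group. The other 3 controls had between 1.57 and 1.71 CPM from 10 to 12 reads. A few reads make this gap, and mutant F2 reached 2.27 CPM. Chance gives about 1 such mouse in 20 groups, and 16 groups of values were tested. Irx2 at 0.157 CPM in control F1 and Irx4 at 0.158 CPM in mutant F1 stood out by construction, since each is 1 read in a group whose other mice had 0 reads, and these 2 say nothing of an excess over chance.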

How the results depend on the processing

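Of the 10 regulators, 1 was called lower, Hey1. No regulator was called lower (0 of those tested) at an adjusted p under 0.01, at a fold over 2, in mice labelled male alone (whose controls and mutants differ in sex by their Xist and Ddx3y reads), or without control M2, and leaving out each library in turn gave 0 to 1. The other 26 alternatives gave 1, and none of the 30 called a regulator higher. Over all alternatives the log2 fold change of Hey1 was between -0.79 and -0.50, with an adjusted p between 0.00532 and 0.118. Heyl changed sign to 0.010 with the length correction and to 0.25 in mice labelled female alone, and lay between -0.13 and 0.075 when each library was left out. Irx5 changed sign to 0.036 with the replicate block and to 0.25 in mice labelled female alone, and lay between -0.12 and 0.13 when each library was left out. Neither gene was called in any of these, and the cause was not tested.

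Over all genes, 937 were called lower and 1112 higher. Without a fold threshold these were 1967 and 2129, and with a fold over 2 they were 367 and 539, since the threshold itself sets the count. With a mean count of at least 50, where fewer genes are tested, 653 were higher. With a fold over 2, 6 atrial-enriched genes were lower in place of 10. Tbx5 was not called at a fold over 2, at 0.94, nor in mice labelled male alone, at 0.70 with an adjusted p of 0.0549.

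Control and mutant mice with the same replicate label had correlations of their deviations between -0.096 and -0.045, and other pairs between -0.45 and 0.41. By Xist and Ddx3y reads the same-label pairs join mice of opposite sex, so these values cannot decide whether mice were paired. With the replicate block, which rests on the same labels, 903 genes were lower and 1054 higher, and Hey1 was at -0.70 (edgeR adjusted p = 0.0275). Before the length correction, log2 fold change and transcript length had a Spearman correlation of -0.31 across genes, which are not independent, and 0.0045 after it. Depth limits Irx1, Irx2 and Irx4, at 0 or 1 read per library, and Irx3.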
